A study of Homo sapiens with 6 samples.

Results

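The 9 genes described here, CD14, TLR4, CSF1R, FCGR1A, FCGR2A, FCN1, LYZ, VCAN and CD68, are genes commonly used as markers of the monocyte lineage, although several, such as FCGR2A, LYZ and TLR4, are also expressed by granulocytes. They were chosen by symbol, matched to Ensembl identifiers among the 61806 genes of the table, and all 9 passed the filter on low counts. The cells were NB4, a human line established from acute promyelocytic leukaemia, whose cells stop maturing as granulocyte precursors. In 3 libraries the NB4 cells stably overexpressed CD69, an activation receptor best known from lymphocytes, after lentiviral transduction, and in the other 3 they carried the vector control. All 6 were grown in the same medium without any drug, were collected in logarithmic growth and carry the same batch number in the labels. The label of the controls gives their genotype as wild-type, while the design text calls them vector controls. The design text speaks of biological replicates but no source states how many transductions were made. Each group may be 1 transduced population, and p-values then reflect only how these libraries vary. The comparison asks which transcripts differ with CD69 overexpression.

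Monocytes and neutrophils arise from a shared myeloid progenitor. Monocyte precursors begin to express the growth factor receptor CSF1R and, as they mature, the lipopolysaccharide co-receptor CD14, while granulocyte precursors fill their granules with proteases. Acute promyelocytic leukaemia cells can be driven to granulocytes by retinoic acid, and several myeloid leukaemia lines move towards monocytes under vitamin D or phorbol esters, with CD14 and CSF1R among the usual readouts.

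Total counts lay between 51543550 and 57463020 per library. CD69 held 98.3, 99.1 and 95.7 CPM (counts scaled to the library total with TMM factors, the unit of all levels below) in overexpressing replicates 1, 2 and 3, against 80.4, 81.9 and 70.6 CPM in control replicates 1, 2 and 3. The log2 fold change was 0.33 (SE 0.07; adjusted p = 0.0153 by the quasi-likelihood test of edgeR). That call was lost in 3 of 17 alternatives. These were a test against a fold of 1.2 (edgeR glmTreat, adjusted p = 0.260) and leaving out overexpressing replicate 2 (edgeR adjusted p = 0.0618). The third was overexpressing replicate 1 alone, with a log2 fold change of 0.34. Of the promyelocyte granule genes, MPO, which encodes myeloperoxidase, was at only 0.518 to 1.03 CPM in overexpressing and 0.928 to 1.45 CPM in control libraries, whereas CTSG, cathepsin G, was at 641 to 775 CPM and 562 to 695 CPM. On the first principal component, overexpressing replicate 1 scored 32.4, apart from replicates 2 and 3 at 74.8 and 74.3, and the controls scored -61.7 to -59.5.

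FCN1 and FCGR2A rose in all 3 overexpressing libraries, CD68 was slightly lower, and the defining monocyte receptors CD14 and CSF1R stayed under 2 CPM in every library. VCAN and CD14 were low in overexpressing replicates 2 and 3 but at control level in replicate 1. Of the 9 markers, 2 were called higher (22.2%), 1 lower (11.1%) and 6 passed in neither direction (edgeR quasi-likelihood test, adjusted p under 0.05). Over all 19485 genes tested 14.2% were called higher and 9.94% lower, so the markers' shares were near those of all genes. The same 2 and 1 markers were called by DESeq2, where 16.3% of genes were higher and 14.0% lower, with a replicate block (16.4% and 13.7%) and with counts divided by 4 (18.5% and 13.5%). The median log2 fold change was 0.03 over the 9 markers and 0.01 over all tested genes. The summed level of the markers, most of it from LYZ and CD68, was 601, 598 and 593 CPM in overexpressing replicates 1, 2 and 3 and 571, 573 and 568 CPM in control replicates 1, 2 and 3.

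**Figure D1:**
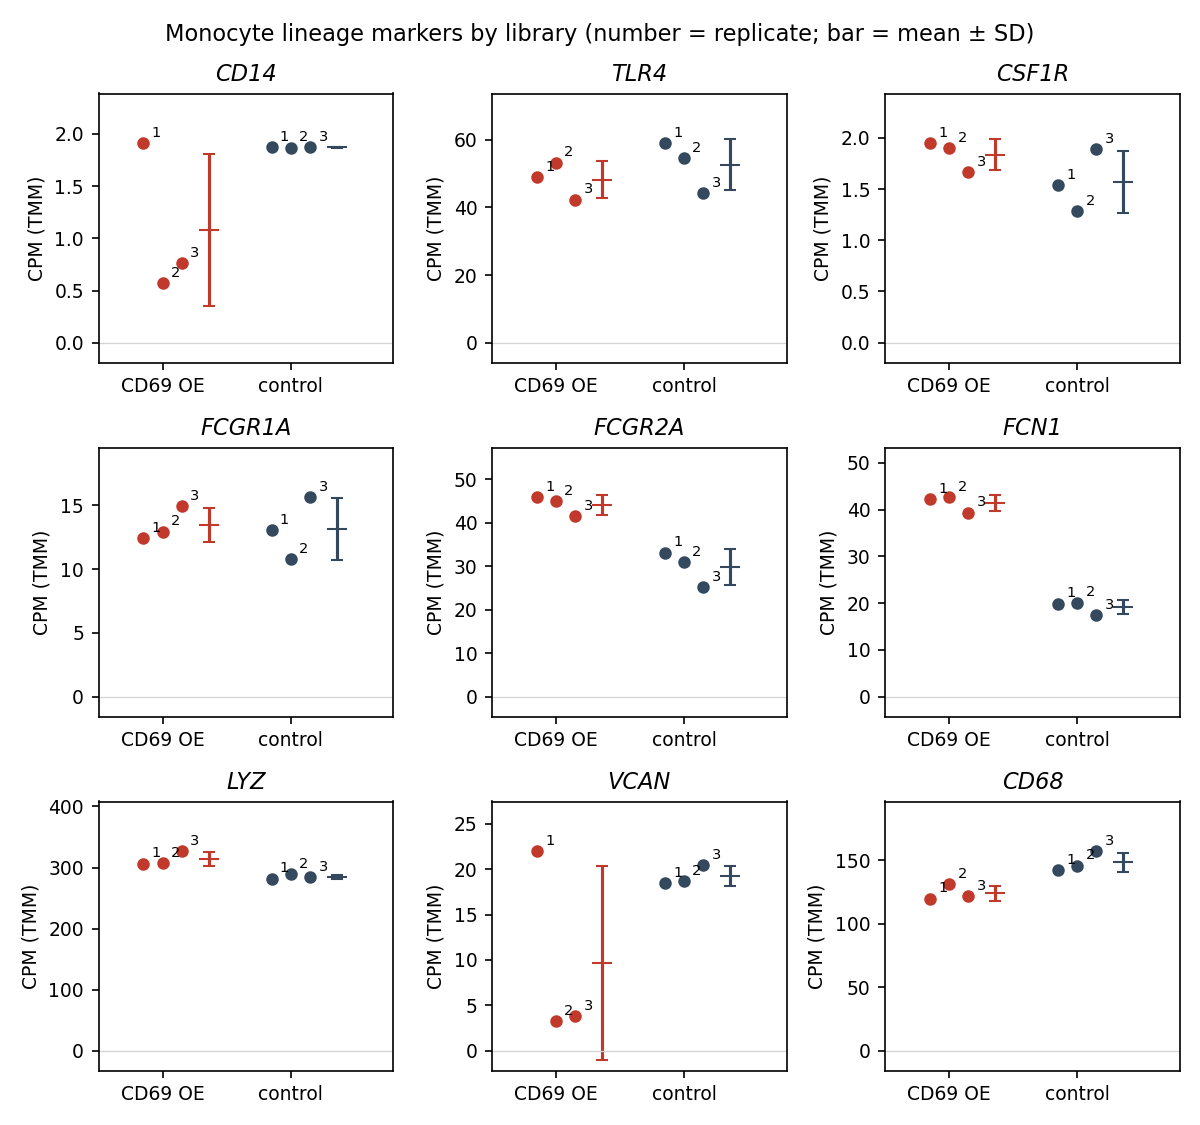
Level of each marker in CPM with TMM scaling (vertical axes, linear, a scale per gene) in the 3 CD69-overexpressing libraries (red) and the 3 control libraries (dark blue). Numbers give the replicate and bars the mean with SD. FCN1 and FCGR2A lie higher in every overexpressing library, and CD14 and VCAN show replicate 1 at control level with replicates 2 and 3 far lower.

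The markers covered a wide range when levels were set per kilobase of exon. In overexpressing cells the order of mean levels was LYZ at 178 ± 6.42 CPM per kilobase (SD, n = 3), CD68 at 56.7 ± 2.71, FCN1 at 8.31 ± 0.354, FCGR2A at 8.30 ± 0.421, FCGR1A at 4.48 ± 0.444, TLR4 at 3.63 ± 0.414, VCAN at 0.652 ± 0.718, CD14 at 0.573 ± 0.384 and CSF1R at 0.356 ± 0.0291. Neighbours whose libraries overlapped were FCN1 and FCGR2A, VCAN and CD14, and CD14 and CSF1R. In control cells LYZ at 161 ± 2.09 CPM per kilobase (SD, n = 3) and CD68 at 67.8 ± 3.49 also led, followed by FCGR2A at 5.59 ± 0.777, FCGR1A at 4.39 ± 0.808, TLR4 at 3.96 ± 0.566 and FCN1 at 3.85 ± 0.293, which overlapped from neighbour to neighbour. VCAN at 1.30 ± 0.0741, CD14 at 0.993 ± 0.00158 and CSF1R at 0.305 ± 0.059 came last without overlap. FCN1 thus lay below FCGR2A and overlapped FCGR1A and TLR4 in the controls, and overlapped FCGR2A and lay above FCGR1A and TLR4 in overexpressing cells.

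FCN1 (ENSG00000085265; GRCh38 chromosome 9, 134905890 to 134917963, minus strand) encodes M-ficolin, a lectin that monocytes secrete and carry on their surface to recognise acetylated sugars. It held 42.2, 42.6 and 39.4 CPM in overexpressing replicates 1, 2 and 3, against 19.9, 20.1 and 17.5 CPM in control replicates 1, 2 and 3. The groups were far apart and the libraries within each group were close. The mean was 2.16 times higher in overexpressing cells (41.4 ± 1.76 CPM against 19.2 ± 1.46 CPM, SD, n = 3 each), a log2 fold change of 1.11 (SE 0.09; edgeR adjusted p = 0.000139). It was called higher in each of the 17 alternatives, with log2 fold changes of 1.05 to 1.15 and adjusted p from 9.1e-28 to 0.0129. No other annotated gene shares exons with FCN1. The related ficolin genes FCN2 and FCN3 were at or near 0 in every library.

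FCGR2A (ENSG00000143226; chromosome 1, 161505430 to 161524013, plus strand) encodes the activating low-affinity IgG receptor CD32A of monocytes and neutrophils. Its level was 45.8, 44.9 and 41.6 CPM in overexpressing replicates 1, 2 and 3, against 33.1, 30.9 and 25.1 CPM in control replicates 1, 2 and 3. The lowest overexpressing library was above the highest control. The ratio of means was 1.48 and the log2 fold change 0.57 (SE 0.11; edgeR adjusted p = 0.00862). With overexpressing replicate 1 alone, a comparison in which the controls alone supply the spread and the lone library is assumed to vary like them, the log2 fold change was 0.62 and the adjusted p was 0.115. Over the 17 alternatives the adjusted p ranged from 4.2e-05 to 0.115. FCGR2A has a near-identical relative, FCGR2C, in its cluster and shares 3.8% of its exon length with a same-strand transcript, so part of its counts is uncertain.

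The sequences of these 2 genes, the markers that rose, are shown just before their RefSeq start, because PU.1, the factor that opens the monocyte and granulocyte programme, binds purine-rich boxes near the start of many myeloid genes. Each line gives the 250 bases before the RefSeq transcription start on the gene's own strand (GRCh38.p14, chr9:134917913-134918162 minus strand and chr1:161505207-161505456 plus strand), with matches to the core PU box GAGGAA, on either strand, in capitals.
FCN1: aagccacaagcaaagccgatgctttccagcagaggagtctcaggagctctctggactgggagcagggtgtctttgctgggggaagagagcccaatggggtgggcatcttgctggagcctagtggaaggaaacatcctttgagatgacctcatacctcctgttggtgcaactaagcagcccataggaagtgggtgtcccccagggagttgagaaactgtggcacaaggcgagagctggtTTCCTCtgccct
FCGR2A: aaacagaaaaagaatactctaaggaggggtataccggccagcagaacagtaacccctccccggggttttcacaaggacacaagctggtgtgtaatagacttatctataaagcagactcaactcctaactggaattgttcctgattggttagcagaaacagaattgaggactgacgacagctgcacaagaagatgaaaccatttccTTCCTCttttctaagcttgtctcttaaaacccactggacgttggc

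Both matches lay on the opposite strand, beginning 12 bases before the start in FCN1 and 45 bases before it in FCGR2A. The box was present in 23.6% of the 34788 RefSeq windows of the same length. RefSeq windows were matched for 8 of the 9 markers, with a pair of starts for CSF1R and no entry for LYZ. The box was also found before CD14, CD68, FCGR1A, TLR4 and the downstream start of CSF1R, none of which rose, and was not found before VCAN. The AP-1 box TGAGTCA, held by 4.21% of windows, was found before CD14, CD68 and the upstream start of CSF1R, and the C/EBP pattern TTGCNNAA, held by 9.05% of windows, was found before CD68 alone among the markers. None of the matches overlapped another, and a match of letters does not show a bound site. In GENCODE both FCN1 and FCGR2A begin a little before the RefSeq start, so the box of FCN1 lies within the annotated gene. The windows of CD14, VCAN and the downstream start of CSF1R lie wholly within their GENCODE genes. Those of CD68 and TLR4 lie mostly within theirs, so a match before the RefSeq start is not always before the gene.

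The other IgG receptor genes were not called by edgeR. FCGR1A (ENSG00000150337; chromosome 1, 149782671 to 149792518, plus strand), the high-affinity IgG receptor CD64, held 12.4, 12.9 and 14.9 CPM in overexpressing replicates 1, 2 and 3, against 13.1, 10.8 and 15.6 CPM in control replicates 1, 2 and 3. The groups overlapped (log2 fold change 0.03, SE 0.16, 95% interval -0.33 to 0.39; edgeR adjusted p = 0.915). FCGR1A shares 18.7% of its exon length with an antisense transcript and has near-identical copies, of which FCGR1BP (2.21, 2.45 and 2.94 CPM against 1.52, 2.10 and 2.36 CPM in controls) and FCGR1CP (0.589, 1.28 and 1.47 CPM against 2.02, 1.39 and 1.86 CPM in controls) were not called. FCGR2B, the inhibitory receptor, held 5.52, 6.31 and 5.46 CPM in overexpressing replicates 1, 2 and 3, against 3.89, 3.67 and 4.48 CPM in controls. Its log2 fold change of 0.52 was close to that of FCGR2A but narrowly missed the threshold (SE 0.16; edgeR adjusted p = 0.0541). FCGR2C had a log2 fold change of -0.50 (SE 0.34; edgeR adjusted p = 0.334). FCGR3A and FCGR3B, the CD16 genes, had at most 0.248 CPM in any library. FCER1G, the signalling chain that carries FCGR1A to the surface, rose to 48.5, 45.5 and 55.5 CPM in overexpressing replicates 1, 2 and 3, against 29.9, 25.6 and 35.6 CPM in control replicates 1, 2 and 3 (log2 fold change 0.71, SE 0.13; edgeR adjusted p = 0.00706). Of the 12 tested genes of Fc receptors and adaptors, 2 rose and 2 fell by edgeR (over all tested genes, 14.2% rose and 9.94% fell). DESeq2 called 3 higher and 3 lower, where it called 16.3% of all genes higher and 14.0% lower. With limma-voom 3 were higher and 2 lower, where 2804 of all genes were higher and 2041 lower. FGR, a kinase of myeloid cells, fell by 0.53 on the log2 scale, and FCAR, the IgA receptor, was the other that rose.

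CD14 (ENSG00000170458; chromosome 5, 140631728 to 140633701, minus strand), which hands lipopolysaccharide to TLR4, was low throughout. It held 107, 32 and 39 counts in overexpressing replicates 1, 2 and 3, against 105, 106 and 105 counts in control replicates 1, 2 and 3. On the CPM scale that was 1.91, 0.568 and 0.764 in overexpressing libraries, against 1.87, 1.87 and 1.87 in controls. Replicate 1 was at control level, and replicates 2 and 3 averaged 0.356 times the control mean. Over all 6 libraries the log2 fold change was -0.79 (SE 0.44, 95% interval -1.82 to 0.23; edgeR adjusted p = 0.241). Without overexpressing replicate 1 it was -1.50 and passed (edgeR adjusted p = 0.0124), and with that replicate alone it was 0.03. This split follows the CD14 counts themselves, so it describes how the libraries differ and is no separate test of CD14. If a fragment stands for 4 counts, which the 1403 to 1496 genes per library with exactly 4 counts, against 761 to 824 with exactly 3, leave possible, overexpressing replicates 2 and 3 held 8.0 and 9.8 fragments of CD14.

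TLR4 (ENSG00000136869; chromosome 9, 117704175 to 117724730, plus strand), the signalling receptor for lipopolysaccharide, held 48.9, 53.2 and 42.3 CPM in overexpressing replicates 1, 2 and 3, against 58.9, 54.6 and 44.3 CPM in control replicates 1, 2 and 3. The groups overlapped, and the log2 fold change was -0.13 (SE 0.13, 95% interval -0.42 to 0.17; edgeR adjusted p = 0.517). A same-strand gene shares 4.2% of the exon length of TLR4 and held 4 to 14 counts in overexpressing and 5 to 24 in control libraries. Its extracellular partner LY96, known as MD-2, was at 0.509 to 1.07 CPM in overexpressing and 1.36 to 1.57 CPM in control libraries and was not called (log2 fold change -0.85, SE 0.32; adjusted p = 0.0998). The adaptor MYD88 was at 80.0 to 87.7 CPM in overexpressing and 85.5 to 94.9 CPM in control libraries (adjusted p = 0.304). Of 19 tested genes of the lipopolysaccharide and Toll-like receptor pathway, 3 rose and 3 fell, with a median log2 fold change of 0.07. Over all tested genes, 14.2% rose and 9.94% fell. The IRAK family genes IRAK2 and IRAK3 rose by 1.03 and 0.47 on the log2 scale. LY86, the partner of the Toll-like protein CD180, fell by 0.83.

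CSF1R (ENSG00000182578; chromosome 5, 150053291 to 150113372, minus strand), the receptor for the monocyte growth factor CSF1, held 109, 107 and 85 counts in overexpressing replicates 1, 2 and 3, against 86, 73 and 106 counts in control replicates 1, 2 and 3. These were 1.95, 1.90 and 1.66 CPM in overexpressing libraries, against 1.53, 1.29 and 1.89 CPM in controls, and the groups overlapped. The log2 fold change was 0.22 (SE 0.24, 95% interval -0.32 to 0.77; edgeR adjusted p = 0.539), so a rise of the size seen for FCN1 lies outside the interval. The ligand CSF1 held 5.80, 1.19 and 2.49 CPM in overexpressing replicates 1, 2 and 3, against 4.60, 5.34 and 6.05 CPM in control replicates 1, 2 and 3 (adjusted p = 0.319). The other ligand, IL34, was at most 0.0881 CPM in any library. TYROBP, the membrane adaptor DAP12 of myeloid receptors, had a log2 fold change of 0.45 (SE 0.15; adjusted p = 0.0623). Of 11 tested genes of CSF1R ligands and cytokine receptors, 1 rose and 2 fell (over all tested genes, 14.2% rose and 9.94% fell). The progenitor receptors FLT3 and KIT fell by 1.85 and 2.25 on the log2 scale, and CSF2RA, a subunit of the granulocyte-macrophage receptor, rose by 0.34.

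LYZ (ENSG00000090382; chromosome 12, 69348341 to 69354234, plus strand) encodes lysozyme, which cleaves bacterial cell walls and is secreted in large amounts by monocytes. It was the most abundant marker, at 306, 307 and 326 CPM in overexpressing replicates 1, 2 and 3, against 282, 289 and 284 CPM in control replicates 1, 2 and 3. All overexpressing libraries lay above all controls, but the ratio of means was only 1.10. The log2 fold change of 0.14 (SE 0.06) did not pass (edgeR adjusted p = 0.124). With LYZ, 3 of the 9 markers were higher in every overexpressing library than in every control and 1 was lower in every one, where 23.0% and 19.3% of all tested genes were. An antisense transcript overlaps 34.0% of the exon length of LYZ and held 0 counts in all libraries.

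CD68 (ENSG00000129226; chromosome 17, 7579467 to 7582113, plus strand), a glycoprotein of the lysosomal membrane of macrophages that belongs to the LAMP family, held 119.8, 131 and 122 CPM in overexpressing replicates 1, 2 and 3, against 142, 146 and 157 CPM in control replicates 1, 2 and 3. Every overexpressing library was below every control. The log2 fold change was -0.26 (SE 0.07; edgeR adjusted p = 0.0301). The log2 fold change stayed between -0.31 and -0.21 in all 17 alternatives, while the call was lost in 8, among them leaving out control replicate 1 or 2 (adjusted p = 0.0592 and 0.0771) or overexpressing replicate 1, 2 or 3 (adjusted p = 0.110, 0.0621 and 0.0823). A processed transcript on the same strand covers 81.7% of the exon length of CD68 and held 10347, 8211 and 8931 counts in overexpressing libraries and 7497, 6705 and 10803 in controls, so how reads were divided between them is uncertain. Of 12 tested genes of lysosomal membrane proteins and enzymes, 6 rose and 1, LAMP1, fell (over all tested genes, 14.2% rose and 9.94% fell). LAMP5, a LAMP relative of dendritic cells and neurons, held 333, 324 and 334 CPM in overexpressing replicates 1, 2 and 3, against 4.02, 3.68 and 5.23 CPM in control replicates 1, 2 and 3 (log2 fold change 6.26, SE 0.14; edgeR adjusted p = 5.8e-07). NPC1 and CTSD rose by 1.62 and 1.53.

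VCAN (ENSG00000038427; chromosome 5, 83471465 to 83582303, plus strand), the matrix proteoglycan versican, is among the strongest markers of classical monocytes and is also made by fibroblasts. It held 21.97, 3.23 and 3.82 CPM in overexpressing replicates 1, 2 and 3, against 18.4, 18.7 and 20.5 CPM in control replicates 1, 2 and 3. Replicate 1 was above every control, and replicates 2 and 3 averaged 0.183 times the control mean. Over all libraries the log2 fold change of -0.99 did not pass (SE 0.66, 95% interval -2.53 to 0.56; edgeR adjusted p = 0.329). Without overexpressing replicate 1 it was -2.45 (edgeR adjusted p = 0.000165), and with that replicate alone it was 0.19. Each library was left out in turn, but only replicate 1 was also fitted alone. This split runs along the difference seen in VCAN and CD14 themselves. Their calls without replicate 1 therefore describe how the libraries differ and are no separate test. In that comparison of replicates 2 and 3 with the controls, 2 markers were called lower, VCAN and CD14, and 2 higher, FCN1 and FCGR2A, where 9.15% of the 20374 genes tested were called lower and 11.7% higher. With overexpressing replicate 1 alone, where the spread comes from the controls only and fewer genes of all kinds were called (1.76% lower and 3.7% higher), 1 marker, FCN1, was called higher and 0 lower (edgeR, 1 at an unadjusted p under 0.05). The numbers of calls in these comparisons are therefore not comparable. VCAN-AS1 overlaps VCAN on the opposite strand and held 0 counts. Of the 9 tested relatives of versican, ficolin and lysozyme, 1 rose, ADAMTS9 (log2 fold change 1.16), and 1 fell, ADAMTS5 (log2 fold change -1.52), both proteases of the family that cleaves versican. In the same fit of all 6 libraries, 14.2% of all tested genes rose and 9.94% fell. The hyaluronan receptor CD44, the next by p, had a log2 fold change of -0.17 (adjusted p = 0.0801).

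**Figure D2:**
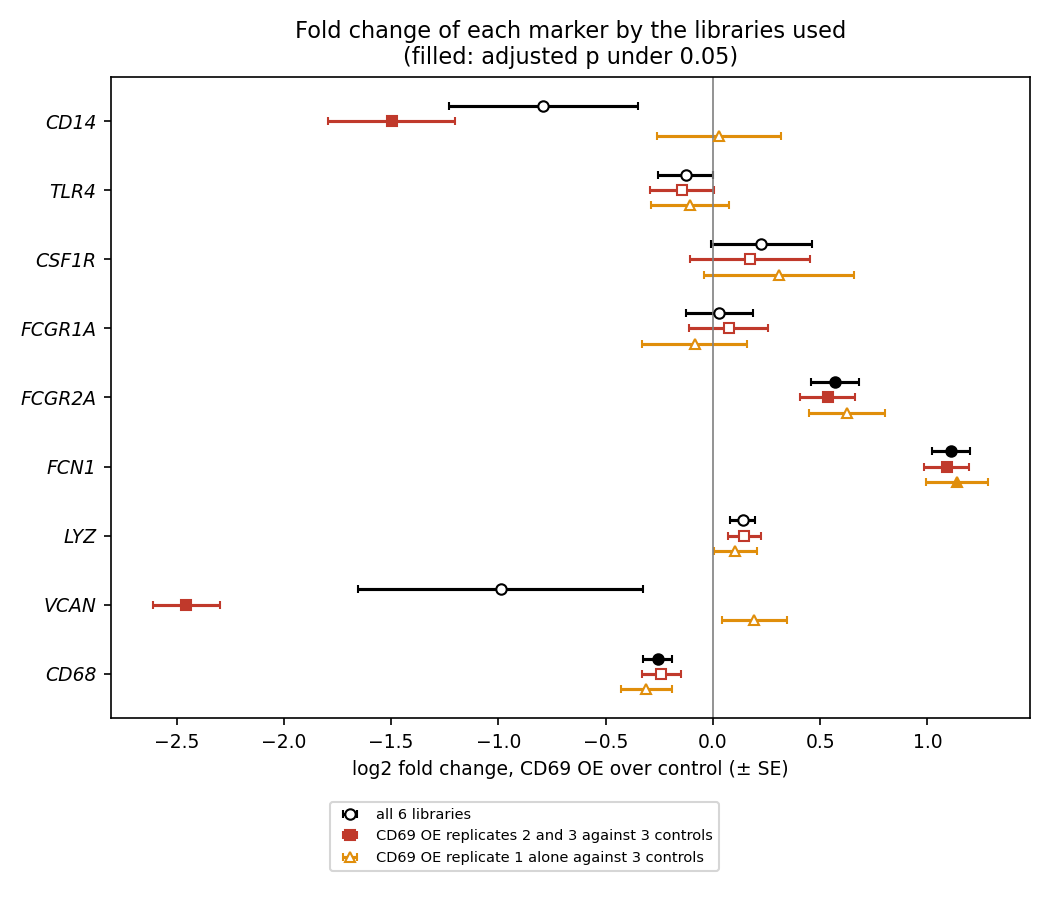
Log2 fold change of CD69-overexpressing over control cells with SE (horizontal axis) for each marker (rows), from all 6 libraries (black), from overexpressing replicates 2 and 3 (red) and from overexpressing replicate 1 alone (orange), each against the 3 controls, filled where the adjusted p was under 0.05. FCN1 keeps its size in all 3 comparisons, while VCAN is at -2.45 without replicate 1 and at 0.19 with it alone. The split runs along the difference seen in VCAN and CD14, so it is no separate test of them.

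VCAN and CD14 were low in the same overexpressing libraries, 2 and 3, as the sum of a list of fibroblast and epithelial genes. The summed level of its 12 genes was 132, 49.8 and 46.7 CPM in overexpressing replicates 1, 2 and 3, against 128, 143 and 132 CPM in control replicates 1, 2 and 3. The 3 keratin genes of the list carried that difference, with a sum of 106, 26.1 and 33.8 CPM in overexpressing replicates 1, 2 and 3, against 105, 104 and 105 CPM in control replicates 1, 2 and 3. The other 9 genes summed to 26.3, 23.7 and 12.9 CPM in overexpressing libraries, against 22.6, 38.5 and 27.3 CPM in controls, and these groups overlapped (a split made after the values were seen). Single genes were also picked after their values were seen. KRT8 held 56.9, 14.3 and 11.3 CPM in overexpressing libraries against 55.6, 58.5 and 57.4 CPM in controls. The keratins were not alike, as KRT19 lay nearer its control level in overexpressing replicate 3 than KRT8 did. COL1A2 held 12.8, 4.90 and 3.00 CPM against 10.5, 14.7 and 14.1 CPM, while LUM and PDGFRA stayed under 1 CPM in every library. No gene of the list was at 0 in all libraries, and EPCAM alone of its 9 tested genes was called by edgeR (lower, log2 fold change -1.04, adjusted p = 0.0315), with COL3A1 at 3.25 and CDH1 at -0.70 not called. The pattern was not confined to that list. Of monocyte factor and lysosomal genes, also picked after their values were seen, CEBPD held 2.48, 0.302 and 0.725 CPM in overexpressing libraries against 2.05, 2.84 and 2.11 CPM in controls. CTSL held 4.82, 1.03 and 0.784 CPM against 5.59, 5.92 and 6.08 CPM, and CSF1 was likewise lowest in replicates 2 and 3. In the opposite direction, the 16 genes of the B cell list summed to 76.8, 168 and 173 CPM in overexpressing replicates 1, 2 and 3, against 55.6, 50.0 and 57.0 CPM in control replicates 1, 2 and 3. In RNA from whole cultures, fewer cells of a type and less RNA per cell cannot be told apart, and the part of these other cell type genes in the VCAN and CD14 levels was not tested. For FCN1 and FCGR2A, the mean of overexpressing replicates 2 and 3 was 0.972 and 0.944 times the level in replicate 1.

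**Figure D3:**
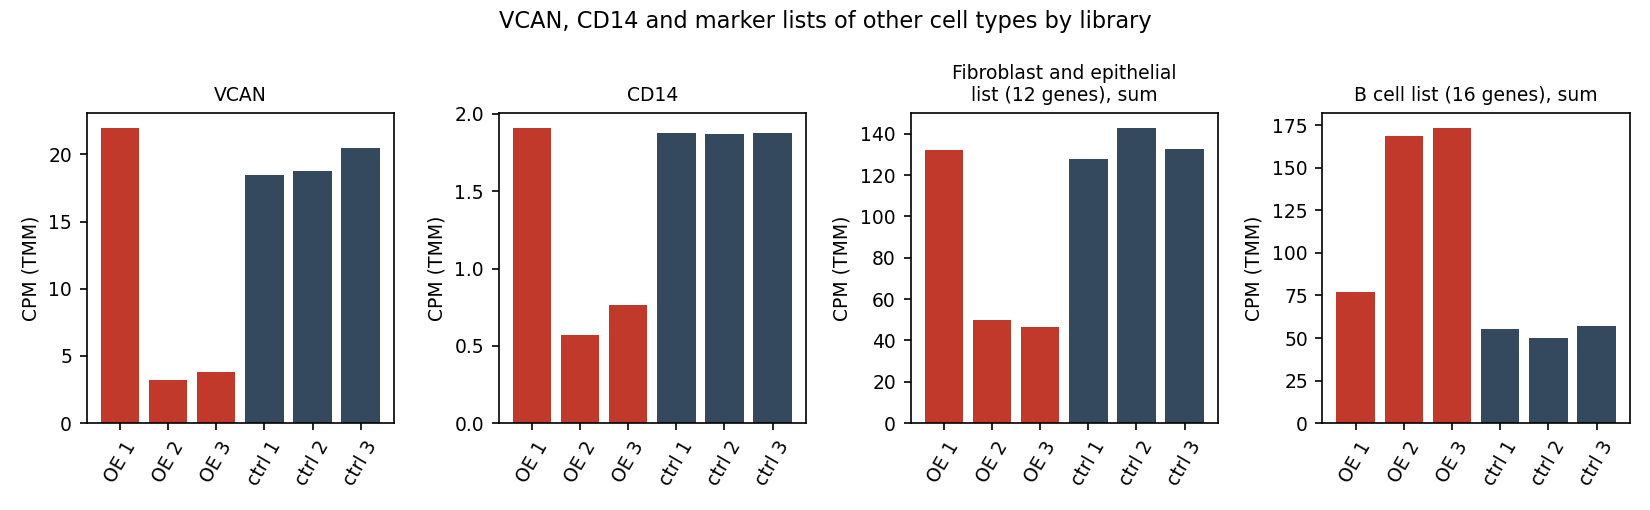
Level in CPM with TMM scaling (vertical axes, from 0) of VCAN, CD14, the sum of 12 fibroblast and epithelial genes and the sum of 16 B cell genes in overexpressing libraries 1 to 3 (red) and control libraries 1 to 3 (dark blue). VCAN, CD14 and the fibroblast and epithelial sum are low in overexpressing libraries 2 and 3 alone, where the B cell sum is high.

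The genes whose pattern over the 6 libraries was most like that of VCAN were KRT18, PHLDB2 and MYL9, keratin, cytoskeletal linker and myosin light chain genes of adherent cells. Their root mean square difference from VCAN, on centred log2 CPM, was 0.132, 0.154 and 0.174 over 10247 coding genes compared. KRT18 held 25.6, 4.70 and 5.33 CPM in overexpressing replicates 1, 2 and 3, against 28.3, 23.8 and 26.2 CPM in control replicates 1, 2 and 3. It shares exon bases with KRT8 on the opposite strand. Overexpressing replicates 2 and 3 were both under 50% of every other library in 442 of the 19485 tested genes (2.27%), a rule set after these values were seen, and VCAN and CD14 were among them. For FCN1 the closest genes were GATAD1, SLC30A9 and PLEKHA2 (0.030, 0.038 and 0.043), and for FCGR2A they were PXK, METTL8 and ANTXR2 (0.031, 0.031 and 0.032). These are descriptions over 6 libraries that share 2 groups.

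Among other monocyte genes, more fell than rose. Of 30 tested markers outside the 9, 6 rose, 11 fell and 13 did not pass, where 14.2% of all tested genes were higher and 9.94% lower. Their median log2 fold change was -0.31. The scavenger receptor CD36 held 28.9, 26.0 and 27.3 CPM in overexpressing replicates 1, 2 and 3, against 0.482, 0.511 and 0.482 CPM in control replicates 1, 2 and 3 (log2 fold change 5.79, SE 0.13; edgeR adjusted p = 5.8e-07). SERPINA1, which encodes alpha-1-antitrypsin, and the inhibitory lectin CLEC12A rose by 2.36 and 1.51. The others that rose were CX3CR1, TREM1 and CD93. With 12, 5 and 0 counts in control replicates 1, 2 and 3, TREM1 passed the filter on low counts only because it was high in overexpressing libraries. The 11 that fell were S100A9, CCR2, CD300E, LILRB1, LILRB2, CD4, CSTA, AIF1, CPVL, ADGRE1 and ADGRE2, all by 0.32 to 1.92 on the log2 scale. S100A9, a calcium-binding alarmin of monocytes and neutrophils, held 6.59, 8.44 and 5.54 CPM in overexpressing libraries, against 19.3, 19.1 and 24.1 CPM in controls.

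Of 20 tested transcription factors of the monocyte lineage, 4 rose and 4 fell, with a median log2 fold change of -0.01. Over all tested genes, 14.2% rose and 9.94% fell. IRF8, which directs progenitors to monocytes, was at 129, 132 and 129 CPM in overexpressing replicates 1, 2 and 3, against 78.6, 80.7 and 79.7 CPM in control replicates 1, 2 and 3 (log2 fold change 0.71, SE 0.06; edgeR adjusted p = 0.000143). The early response genes EGR1 and FOS rose by 2.58 and 0.99. SPI1, which encodes PU.1, fell by 0.37 on the log2 scale (SE 0.11; adjusted p = 0.0398). KLF4 (log2 fold change -0.04) and CEBPA (-0.18) were not called, nor were the granulocyte factors CEBPE (0.11) and GFI1 (0.02). Of 20 tested granulocyte factors and markers, 4 rose and 6 fell (over all tested genes, 14.2% rose and 9.94% fell). The granule proteases PRTN3 and ELANE rose by 2.40 and 1.92, and the chemoattractant receptor FPR2 fell by 1.39.

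Genes known to rise when leukaemia lines are driven to monocytes had 8 higher and 4 lower of 17 tested, where 14.2% of all tested genes were higher and 9.94% lower. Their median log2 fold change was 0.80, against 0.01 over all tested genes. TREM1 is among the 8, and it passed the filter on low counts only because it was high in overexpressing libraries. ITGAX, the CD11c integrin of monocytes and dendritic cells, was at 36.6, 41.6 and 34.1 CPM in overexpressing replicates 1, 2 and 3, against 6.18, 4.97 and 5.57 CPM in control replicates 1, 2 and 3. TNF and CD38 rose by 1.86 and 1.52, and ITGAM, the CD11b integrin shared by both branches, fell by 0.55. Of 23 macrophage and dendritic cell genes, 8 passed the filter on low counts and 15 were under 1 CPM in every library, including CD163, MRC1 and the C1Q genes. Of the 8 tested, 5 rose and 1 fell by edgeR (over all tested genes, 14.2% rose and 9.94% fell), and limma-voom called 4 higher. Of these IRF4, a factor of dendritic and B cells, held 1.21, 15.0 and 18.4 CPM in overexpressing replicates 1, 2 and 3, against 1.86, 1.55 and 1.11 CPM in control replicates 1, 2 and 3, so replicate 1 lay among the controls. MERTK and SIGLEC1 rose by 1.76 and 3.36, and SPP1 fell by 2.83, SIGLEC1 at no more than 1.70 CPM in any library. With 7, 8 and 4 counts in control replicates 1, 2 and 3, SIGLEC1 passed the filter only because it was high in overexpressing libraries.

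**Figure D4:**
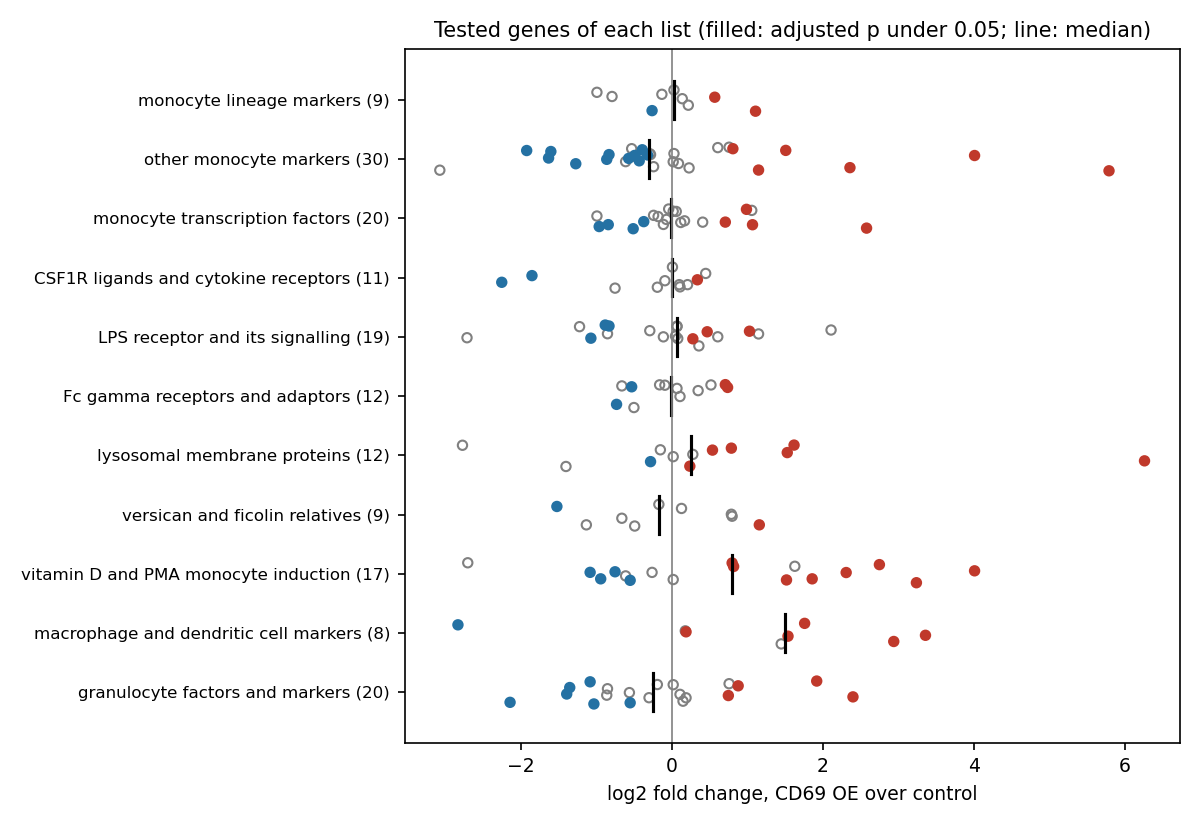
Log2 fold change of CD69-overexpressing over control cells (horizontal axis) for every tested gene of the 9 markers and of 10 related lists (rows, number tested in brackets), filled red (higher) or blue (lower) where the adjusted p was under 0.05, with the list's median as a line. The 9 markers lie around 0 with a median of 0.03, and the lists of other monocyte genes and of transcription factors hold called genes on both sides.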

How the data were processed

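Poly(A) RNA from 6 NB4 libraries was sequenced in pairs on a strand-specific protocol, per the labels' protocols. The deposited table gives a count for each gene and library, treated as estimated counts; all were whole numbers, so rounding changed nothing. Genes with exactly 4 counts were in excess, so 1 fragment may stand for several counts. FastQC, fastp, STAR, featureCounts and the GRCh38 build are named per the submitters' processing notes. The versions, the annotation and the strand setting are not given in the sources used here.

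Genes passing filterByExpr (19485) were scaled by TMM and tested with edgeR 4.0.16 (two-sided quasi-likelihood test in R 4.3.3), and p-values were adjusted by Benjamini-Hochberg over all of them at a threshold of 0.05. limma 3.58.1 and DESeq2 1.42.0 served as alternatives, with other scaling, filters, a fold of 1.2, a replicate block, counts divided by 4, overexpressing replicate 1 alone and each library left out. Positions and exon lengths came from GENCODE 29 (GRCh38), and promoter sequences from RefSeq (GRCh38.p14). Exon overlap with other genes was checked for listed genes: IRAK3, CTSD, FCGR2A, TLR4, FCGR2C, EPOR and COL3A1 share bases with a gene on their strand, and CLEC12A, NPC1, LAMP5, CD44, ADAMTS9, PAX5, NCAM1, CDH1, GP1BA, CEBPA, KRT8, KRT18, CPVL, LILRB1, ADGRE1, ADGRE2, FCGR2B, FCGR1BP and FCGR1CP with one on the other strand. Genes named for likeness were not checked, except KRT18.

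The rule for names took all 9 markers, set partners of them, the 3 tested genes with the smallest p in each of 15 other lists, and for each marker of at least 5 mean CPM the 3 coding genes nearest in pattern. Other names, such as KRT8, COL1A2, CEBPD, CTSL, IRF4, S100A9, CX3CR1, TREM1, CD93 and ITGAM, were chosen after their values were seen. Some genes that the rule names are not reported here. The markers and lists were chosen with earlier results of these data known. Figures were drawn with matplotlib 3.10.9.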

Additional observations from a re-analysis of the deposited data

How the results depend on the processing

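The calls on FCN1 and FCGR2A held in all alternatives but 1, overexpressing replicate 1 alone (spread from the controls only), where 1 marker (FCN1) was called higher. The call on CD68 was lost in 8 of 17. No marker was called lower (0) by edgeR without a filter on low counts or with overexpressing replicate 1 alone, where 1 was lower at an unadjusted p under 0.05 (CD68), or against a fold of 1.2 (glmTreat), where 0 were. limma-voom and DESeq2 each called 1. Leaving out a library in turn gave 2 markers higher each time and 0 to 2 lower. The 2 lower were CD14 and VCAN without overexpressing replicate 1, a fit that drops the library where both were at control level. In that fit 11.7% of the 20374 genes tested were higher and 9.15% lower. Of 153 marker values under the 17 alternatives, 137 kept direction and call, 9 lost the call, 2 gained it and 5 changed sign. With overexpressing replicate 1 alone the log2 fold changes of other sign were CD14 0.028, VCAN 0.19, FCGR1A -0.085, CSF1 0.12, KLF4 0.085 and CEBPE -0.0995. On leaving out a library in turn, FCGR1A ranged from -0.1126 (without control replicate 2) to 0.174, KLF4 from -0.1208 to 0.0715 (without overexpressing replicate 2), CEBPE from -0.0383 (without overexpressing replicate 3) to 0.2464 and GFI1 from -0.0039 (without control replicate 3) to 0.0418. None of these genes was called in the fit of all 6 libraries, and the cause was not tested.

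Over all 19485 genes tested with all 6 libraries, 2767 were higher and 1937 lower, and the number tested changed with the libraries used. The counts were 1723 and 874 against a fold of 1.2, and 797 and 380 with overexpressing replicate 1 alone. Leaving out a library gave 1783 (without overexpressing replicate 2) to 2917 higher and 1137 (without overexpressing replicate 2) to 2226 lower, with 1227 and 1287 lower without control replicates 1 and 2. The replicate block gave 3194 higher and 2669 lower, with 2 markers higher and 1 lower. Same-numbered libraries deviated with correlations of -0.033, 0.052 and 0.071, so the numbers were not taken as pairs, and not every library correlated best with its own number. Other scaling factors shifted the median gene by at most 0.015 on the log2 scale. CD14 and CSF1R held only 32 to 109 counts per library, which limits how finely a change can be seen. For CD14 the overexpressing libraries also disagreed, at 107, 32 and 39 counts in replicates 1, 2 and 3.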

Other observations

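Markers of further cell types moved in no common direction. For the counts that follow, edgeR called 14.2% of all tested genes higher and 9.94% lower. Of 14 tested B cell genes, 6 rose and 0 fell by edgeR (9 and 0 at an unadjusted p under 0.05, 9 and 0 by DESeq2, 3 and 0 by limma-voom). FCER2, the low-affinity IgE receptor, held 41.8, 41.4 and 47.3 CPM in overexpressing replicates 1, 2 and 3, against 20.97, 18.1 and 25.6 CPM in control replicates 1, 2 and 3 (log2 fold change 1.01). The B cell factor PAX5 rose by 1.58 on the log2 scale. MS4A1, which encodes CD20, was not called and held 0.91, 22.4 and 22.7 CPM in overexpressing libraries, against 2.59, 1.36 and 0.464 CPM in controls, so replicate 1 lay among the controls.

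Of 6 tested T and NK cell genes, 1 rose, the cytotoxic granule gene NKG7 (log2 fold change 0.81), and 3 fell, among them the adhesion molecules NCAM1 and CD2 (log2 fold changes -1.87 and -4.31, CD2 at no more than 1.18 CPM in any library), while CD3E, CD3G and CD8B were at 0 in every library. Of 7 tested mast cell, basophil and eosinophil genes, 2 fell, the near-identical tryptase genes TPSAB1 and TPSB2 (-0.69 and -0.73), and 0 rose by edgeR (1 at an unadjusted p under 0.05, 0 by DESeq2 and limma-voom), with the eotaxin receptor CCR3 at 1.00 not called. Of 5 tested erythroid and megakaryocyte genes, 0 were called in either direction by edgeR, DESeq2 or limma-voom (1 higher and 1 lower by edgeR at an unadjusted p under 0.05), with GP1BA at 0.78, HBB at -2.26 and EPOR at 0.16. In the fibroblast and epithelial list 0 of 9 rose by edgeR, also at an unadjusted p under 0.05, and 1 rose by DESeq2 and 0 by limma-voom.

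Among patterns over the 6 libraries, the nearest coding genes to CD68 were FOXM1, PPP6R2 and LIG1 (root mean square log2 differences of 0.016, 0.022 and 0.026), those to TLR4 were TET3, ALG11 and FBXW7 (0.021, 0.031 and 0.032), those named for LYZ were GRSF1 and NUCB2 (0.017 and 0.025), and those to FCGR1A were RBM4, CKLF and IFI27L1 (0.041 each).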
